A study of Homo sapiens with 9 samples.

Results

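A549, an established human lung adenocarcinoma line, was transfected with a plasmid that overexpresses the long intergenic non-coding RNA (lincRNA) AP001189.3 and compared with A549 that received the control plasmid. The libraries were taken by their labels alone: 3 are labelled as overexpressing AP001189.3 and 3 as the control group, 6 of the 9 RNA-seq libraries of the series. All were A549 cells transfected with jetPRIME, and their total RNA was extracted with Trizol. In the treatment labels of the control group the plasmid is PC3.1 for replicate 1, PC3.2 for replicate 2 and PC3.3 for replicate 3, whereas the study itself writes only of PC3.1. The libraries were read as 3 replicates of 1 control group. The other 3 libraries come from A549 transfected with a LINC00996 plasmid and serve below only to show where a level differs between the lncRNA plasmids. Nothing in the labels says that libraries of a group are separate cultures, so p-values measure the spread between these libraries, which may be technical. A549 is a single tumour line, and transient transfection gives cells that differ in how much plasmid they carry.

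Long non-coding RNAs are transcripts without a known protein product, and some act on chromatin, transcription or RNA processing. Epithelial cells that sense foreign nucleic acid make type I and type III interferons, which signal through receptors, JAK kinases and STAT factors to a large family of interferon-stimulated genes. NF-kB and AP-1 are transcription factors that carry cytokine, growth factor and stress signals in the same cells, and the genes of these pathways set much of what a tumour cell shows to the immune system.

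Counts per library summed to between 15600778 and 17390680 in the 6 libraries, with 24463 to 25660 genes that had a count. The epithelial keratin KRT8 stood at 3844 to 4068 CPM (counts per 1000000, with library totals adjusted by TMM factors) in the control and at 4446 to 4573 CPM in the AP001189.3 libraries, a call (log2 fold change 0.19, adjusted p = 0.00259) that ended with the GC offset described below (0.09, adjusted p = 0.169), and it has 50 pseudogene copies. The epithelial marker list took 0.672% to 0.692% of control and 0.726% to 0.747% of AP001189.3 counts, and the list of A549 marker enzymes 0.528% to 0.542% and 0.499% to 0.515%, without overlap for either list (exact permutation p = 0.1 for each, the smallest that 3 against 3 libraries allow). These shares follow the most abundant members and not the list as a whole: KRT8 was the only called gene of 5 epithelial markers, whose median log2 fold change was -0.03. With the GC offset KRT19 was called in its place, and lower (-0.22, adjusted p = 0.00152). Of the 5 enzymes AKR1C1 (-0.19) and AKR1C2 (-0.19) were called lower, both calls ending with the GC offset (adjusted p = 0.0829 and 0.134), ALDH3A1 was called higher (0.49, and 0.34 with the offset), and NQO1 was at 0.02 (adjusted p = 0.863). The leukocyte marker list took 0.00139% to 0.00207% of counts, nearly all of them from CD14 (7.45 to 13.8 CPM) and ITGAM (5.62 to 8.86 CPM), while PTPRC had at most 1 count and CD3E at most 4 in any of the 6 libraries, and the fibroblast list 0.00185% to 0.00231%. The alveolar list, which includes NKX2-1 and the surfactant genes, took 0.000130% to 0.000199% of control and 0.000247% to 0.000282% of AP001189.3 counts, so that the defining genes of lung alveolar cells were close to absent in both groups. The squamous list took 0.00707% to 0.00716% and 0.00641% to 0.00683%, and the endothelial list 0.00116% to 0.00131% and 0.000718% to 0.000932%. The groups did not overlap for these 3 lists either (exact permutation p = 0.1 for each), while 0 alveolar and 0 squamous genes were called. The LINC00996 libraries were less alike: replicate 1 differed from the other replicates of its group by a chi-square of 20.1 and 29.7 per gene, against 2.21 to 6.70 for pairs within the other groups and 3.13 for LINC00996 replicates 2 and 3. Printed fold changes against this group are therefore also given without its replicate 1 where that changed their direction or call.

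AP001189.3 lies on the minus strand of chromosome 11 (GRCh38, chr11:76654169-76656712, a lincRNA gene with 2 exons) and its spliced transcript has 651 bases, 57.1% of them G or C. In the control libraries it had 0, 2 and 1 counts, at or under the floor of 3 counts used here, and in the 3 AP001189.3 libraries it stood at 97.1, 124 and 143 CPM (121.5 ± 23.0, SD, n = 3). Per length, its deposited FPKM (fragments scaled to transcript length and library size) was 149, 191 and 220, which placed it at rank 198, 138 and 121 of all genes and first among lincRNA genes in each of these libraries. Against a floor of 3 counts in each control library it was at least 686-fold higher. It took 0.0095%, 0.0124% and 0.0142% of their counts. RNA made from the plasmid and RNA made from the endogenous locus cannot be told apart by these counts. The stretch of the annotated transcript that the study's quantitative PCR primers enclose is shown. Whether the reads counted here cover this stretch was not examined. It runs from base 415 to base 524 of the transcript, and capitals mark the primer sites.
AP001189.3, bases 415 to 524: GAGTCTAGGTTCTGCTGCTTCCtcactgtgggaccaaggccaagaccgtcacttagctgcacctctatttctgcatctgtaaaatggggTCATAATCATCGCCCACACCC

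The genes next to AP001189.3 did not pass the test. Of 50 annotated genes within 1 Mb, 20 had enough counts to be tested and 0 were called by edgeR's quasi-likelihood test at an adjusted p under 0.05, with a median log2 fold change of -0.03. TSKU, a secreted proteoglycan gene, stood at 446, 428 and 427 CPM in the control and 458, 468 and 479 CPM in the AP001189.3 libraries (log2 fold change 0.11, adjusted p = 0.104). EMSY, which encodes a BRCA2-binding chromatin protein, stood at 33.8, 31.8 and 30.4 CPM against 28.3, 28.2 and 29.7 CPM (log2 fold change -0.15, adjusted p = 0.193). The groups did not overlap for TSKU or EMSY, but 35.3% of all genes tested (5657) had no overlap between the groups. AP003119.2, an antisense gene with few reads (6, 6 and 7 counts against 19, 13 and 11), had the largest change of these 20. It stood at 0.350, 0.371 and 0.398 CPM against 1.11, 0.838 and 0.661 CPM without overlap (log2 fold change 1.21, SE 0.47, adjusted p = 0.0710), and AP001189.3 against LINC00996 gave -0.15 (adjusted p = 0.806), and 0.11 without LINC00996 replicate 1 (adjusted p = 0.875). LRRC32, the docking receptor for latent TGF-beta, stood at 7.11, 5.06 and 5.75 CPM against 6.96, 5.09 and 5.17 CPM, which overlapped. With the per-library offset for GC content described below, CLNS1A, which encodes a component of the methylosome, passed the test with a log2 fold change of 0.22 (adjusted p = 0.0132). With the same offset TSKU was at -0.01 (adjusted p = 0.935) and EMSY at -0.08 (adjusted p = 0.58).

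Across all genes, 3180 of 16023 tested (19.8%) were called at an adjusted p under 0.05 by edgeR, 1819 (11.4%) higher and 1361 (8.49%) lower in the AP001189.3 libraries. Scaled by library size alone, 1608 were called higher and 1719 lower. Most changes were small: the median size among called genes was 0.32 on the log2 scale and 2513 of them (79%) were under 0.5. Only 116 genes (0.724% of those tested) rose and 42 (0.262%) fell by a log2 fold change of at least 1. Of protein-coding genes, 1693 of 13384 rose and 1280 fell, and of lincRNA genes 17 of 597 rose and 11 fell. Without control replicate 2, AP001189.3 replicate 2 or AP001189.3 replicate 3, 734, 679 and 847 genes were called lower, and without control replicate 1, 240 in place of 158 genes were called at a log2 fold change of at least 1 in either direction. Testing against a fold of 1.2 left 306 genes higher and 51 lower, and fitting all 9 libraries together left 344 and 93. The latter rested on LINC00996 replicate 1, since 1865 and 1426 genes were called with all libraries but that one. In bulk RNA a lower share of cells that express a gene and less RNA per cell cannot be told apart.

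**Figure D1:**
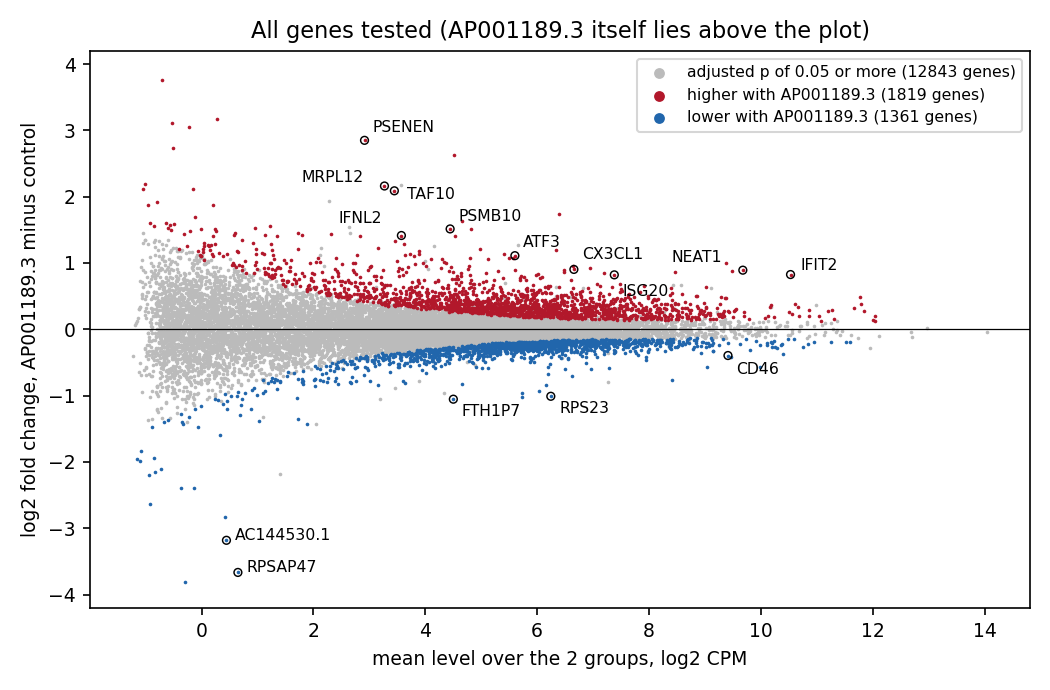
Each gene tested is plotted by its mean level (log2 CPM) and its log2 fold change, AP001189.3 over control, with called genes coloured by direction. The 1819 genes called higher and 1361 called lower lie mostly within 0.5 of zero, and AP001189.3 stands apart at a fitted 10.84, a value that depends on the prior count and is no bound.

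Called genes differed in base composition. Over 5 classes of equal size by transcript GC content, from the lowest (23.1% to 41.1% G or C) to the highest (58.1% to 82.1%), the share called higher went through 2.53%, 4.93%, 8.65%, 15.4% and 25.3%, and the share called lower through 16.6%, 12.9%, 7.34%, 4.12% and 1.47%. Genes called higher had a median GC content of 57.1% and a median transcript of 2791 bases, against 42.5% and 4843 bases for genes called lower. Within single libraries, Spearman's rho of a gene's deviation from the 6-library mean with its GC content, over 16016 genes that are not independent, was -0.05, -0.35 and -0.36 in the control and 0.41, 0.23 and 0.22 in the AP001189.3 libraries. With an offset for GC content fitted in each library, 1298 genes were called higher (8.1% of 16016) and 1134 lower (7.08%). For this reason the counts of a gene group are given below also with that offset, where they moved by more than 1.5 times or a named call ended. Small counts were unsteady: of the counts of members called higher or lower per list, 35 moved by over 1.5 times without AP001189.3 replicate 2, 30 without control replicate 2, 27 without AP001189.3 replicate 3 and 8 to 18 without any other library. Of the same counts 71 moved by over 1.5 times under the test against a fold of 1.2, 69 with all 9 libraries in 1 fit, 30 with the GC offset, 16 with an offset for gene length, 12 with DESeq2 and 10 when scaled by library size alone. Whether the relation to GC content comes from the libraries or from the cells cannot be told apart in this design.

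**Figure D2:**
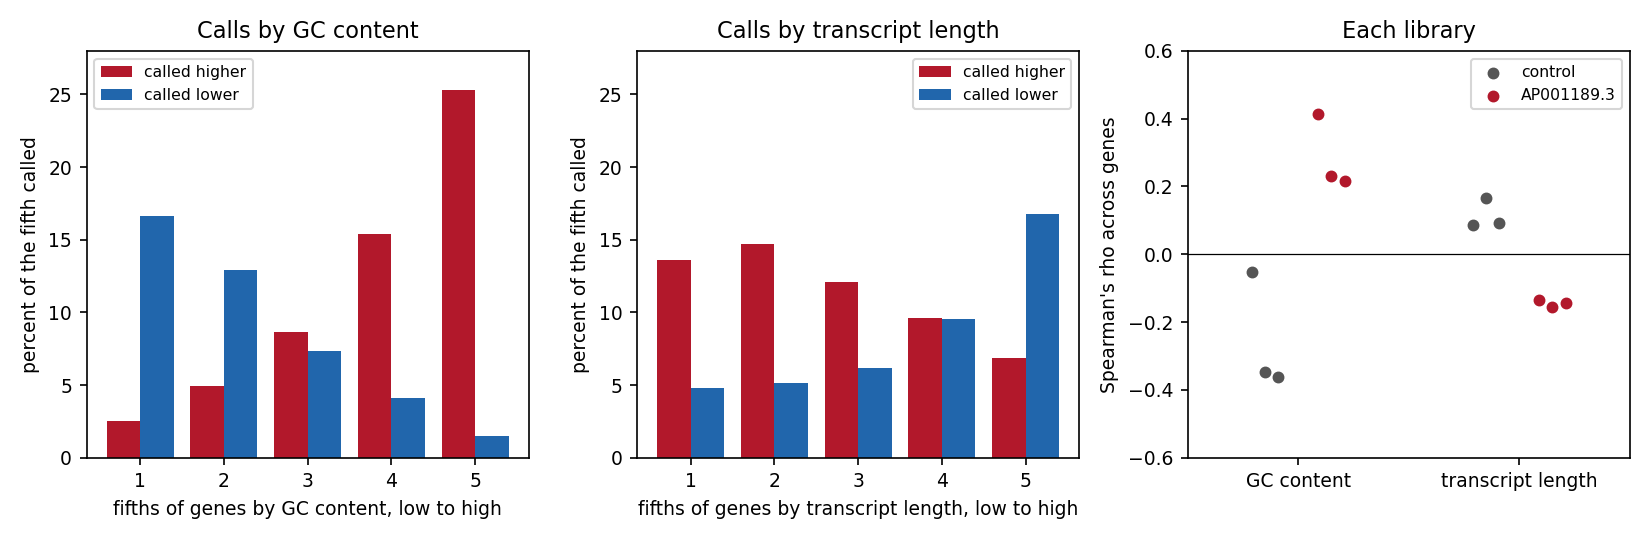
The share of genes called higher and lower (percent of genes tested) is plotted over 5 classes of transcript GC content and of transcript length, with Spearman's rho of each library's deviations beside them. The share called higher goes from 2.53% to 25.3% over the GC classes, and control and AP001189.3 libraries have rho of opposite sign.

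Interferon-stimulated genes were the list with the most members called higher. Of 59 genes tested 35 rose and 0 fell, against 11.4% and 8.49% of all genes, with a median log2 fold change of 0.20 against 0.00 for all genes. By role, 20 of 33 antiviral effectors, 9 of 20 signalling factors and 6 of 6 genes of the ISG15 conjugation system rose. ISG15 is a ubiquitin-like protein that interferon couples to cell proteins. With the GC offset 38 rose and 1 fell, and without any 1 of the 6 libraries 25 to 37 rose. Fitting all 9 libraries together left 15.

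ISG20, a 3' to 5' exonuclease with antiviral activity, stood at 128, 118 and 114 CPM in the control and 202, 225 and 211 CPM in the AP001189.3 libraries (log2 fold change 0.82, SE 0.06, adjusted p = 6.64e-11, edgeR). IFIT2, an interferon-induced RNA-binding protein, went from 1060, 1034 and 1107 CPM to 1662, 1980 and 2031 CPM (0.83, SE 0.06, adjusted p = 1.84e-08). IRF1, a transcription factor that interferon induces, went from 184, 175 and 194 CPM to 273, 262 and 280 CPM (0.56, SE 0.05, adjusted p = 2.54e-08). Every AP001189.3 library lay above every control library for these genes, while 35.3% of all genes tested had no overlap between the groups. In the LINC00996 libraries the same genes lay below the control: ISG20 at 71.6, 51.3 and 60.4 CPM, IFIT2 at 287, 327 and 404 CPM and IRF1 at 99.7, 90.0 and 89.4 CPM. AP001189.3 against LINC00996, a comparison that shares the AP001189.3 libraries with the one above, gave a log2 difference of 1.82 for ISG20 (adjusted p = 2.14e-06), 2.50 for IFIT2 (4.69e-07) and 1.56 for IRF1 (6.55e-07), and 21.4% of 16095 genes were called in it. IFIT2 and IRF1 share exon positions with other annotated genes, IRF1 on the opposite strand only, and their counts are uncertain to that extent. So do 48% of all genes tested, which is not repeated for every gene below.

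IFIT1, a sensor of foreign 5' ends of RNA, stood at 1330, 1335 and 1420 CPM against 1620, 1858 and 1822 CPM (log2 fold change 0.38, adjusted p = 7.71e-06), and MX1, a dynamin-like antiviral GTPase, at 637, 669 and 671 CPM against 754, 812 and 838 CPM (0.28, adjusted p = 0.000173). IFIT1 and MX1 were chosen after their values were seen.

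**Figure D3:**
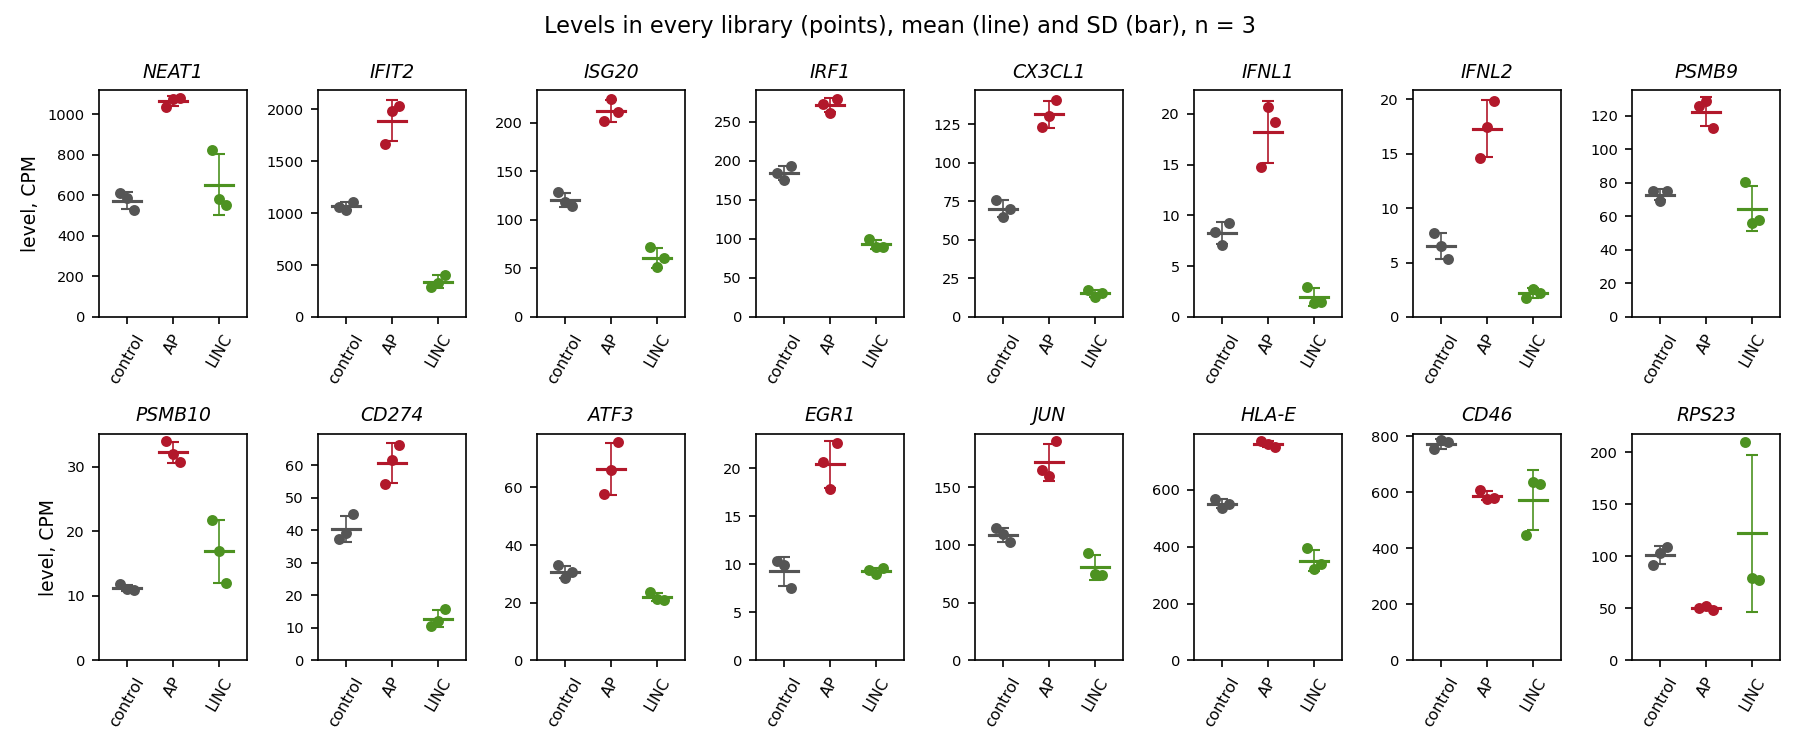
CPM of 16 named genes in each control, AP001189.3 and LINC00996 library (points), with the group mean (line) and SD (bar, n = 3). NEAT1 and the interferon, antigen presentation and immediate early genes shown are higher in the AP001189.3 libraries than in the control ones, and CD46 and RPS23 are lower.

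Interferon genes themselves were among the risers. Of 43 cytokine and chemokine genes tested 13 rose and 2 fell, with a median log2 fold change of 0.23, and 4 fell without control replicate 1. IFNL2, a type III interferon, stood at 7.70, 6.49 and 5.29 CPM in the control and 14.6, 17.5 and 19.8 CPM in the AP001189.3 libraries (log2 fold change 1.41, SE 0.14, adjusted p = 9.26e-08). IFNL1, of the same family, went from 8.40, 7.10 and 9.22 CPM to 14.7, 20.7 and 19.2 CPM (1.14, SE 0.13, adjusted p = 9.08e-07). No AP001189.3 library overlapped the control libraries for either gene. IFNL2 and IFNL3 are near-identical copies, so reads may be split between them. IFNB1, the type I interferon of epithelial cells, was scarce, at 1.05, 0.432 and 1.48 CPM against 2.28, 2.71 and 3.67 CPM (1.53, SE 0.34, adjusted p = 0.00198, chosen after its values were seen). In the LINC00996 libraries IFNL1 stood at 2.96, 1.40 and 1.46 CPM and IFNL2 at 1.7, 2.6 and 2.22 CPM.

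Of 15 chemokine genes 3 were called higher (20%) and 1 lower (6.67%), against 11.4% and 8.49% of all genes tested. CX3CL1, a membrane-bound chemokine that attracts T cells and natural killer cells, stood at 76.0, 64.7 and 70.2 CPM against 123, 131 and 141 CPM (log2 fold change 0.90, SE 0.06, adjusted p = 1.31e-10), with 17.4, 12.8 and 15.4 CPM in the LINC00996 libraries. CCL5, a chemokine that also attracts T cells, fell from 1317, 1165 and 1092 CPM to 952, 1026 and 1050 CPM (-0.24, adjusted p = 0.00585). The lowest control library and the highest AP001189.3 library were 1092 and 1050 CPM, so the groups stood close. TNFSF15, a TNF family cytokine of endothelium and epithelium, fell from 50, 56 and 57.1 CPM to 45.2, 38.2 and 35.2 CPM (-0.46, adjusted p = 0.000296).

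The sequence before the start sites of genes with a match is shown because the interferon-stimulated response element, to which IRF and STAT complexes bind, is known to lie there. Its letters were searched as GAAA, any 2 bases and GAAA on both strands, with overlapping matches kept, in RefSeq windows (GRCh38.p14) from 250 bases before to 50 bases after each annotated start. Such a match was found in 3.57% of all 35116 promoters, in 3.07% of 16035 promoters of tested genes and in 33 of 58 promoters (56.9%) of interferon-stimulated genes. Among promoters of genes called higher 5.43% held it, and among those of genes called lower 1.80%. Within the interferon-stimulated genes, 18 of 34 promoters of genes called higher held it (52.9%), against the 56.9% of the whole list. In the stretches below capitals mark the matches, whose first bases lie 214 and 208 bases before the start of IFNL1 (overlapping), 176 before that of IFNL2, 69 before that of ISG20 and 21 before that of PSMB10. The IFNL1 stretch stops where its first annotated exon begins, and for ISG20 and PSMB10 only the site with its flanks is given because the window lies in an exon of another transcript of the gene. The windows of IRF1 and PSMB9 do not hold these letters and are not printed. IFIT2 and CX3CL1 have no entry in the promoter table used. The match describes these letters and does not show binding.
IFNL1, chr19:39296157-39296324, plus strand: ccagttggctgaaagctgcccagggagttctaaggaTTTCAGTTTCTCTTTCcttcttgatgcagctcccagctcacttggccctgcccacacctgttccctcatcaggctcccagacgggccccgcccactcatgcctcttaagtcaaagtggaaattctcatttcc
IFNL2, chr19:39268146-39268395, plus strand: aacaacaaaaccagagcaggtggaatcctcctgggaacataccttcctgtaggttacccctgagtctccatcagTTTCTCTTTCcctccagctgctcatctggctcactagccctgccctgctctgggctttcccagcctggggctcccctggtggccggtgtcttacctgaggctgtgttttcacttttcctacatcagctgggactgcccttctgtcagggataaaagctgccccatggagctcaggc
ISG20, chr15:88638938-88638965, plus strand: aacaaactaGAAACTGAAAcagggtcgg
PSMB10, chr16:67936853-67936880, minus strand: ggtaaaggcGAAAGCGAAAgcaggaagt

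Sensors and adaptors of nucleic acid recognition rose in part, 7 of 17 higher and 1 lower with a median of 0.21. MYD88, the adaptor of most Toll-like receptors, stood at 192, 195 and 200 CPM against 251, 262 and 259 CPM (log2 fold change 0.40, adjusted p = 1.89e-06). IRF3, the factor that switches on interferon genes, stood at 74.9, 67.1 and 73.0 CPM against 91.2, 93.7 and 83.0 CPM (0.32, adjusted p = 0.000794), or 0.17 with the GC offset, and IFI16, a DNA sensor, at 219, 223 and 211 CPM against 246, 263 and 259 CPM (0.23, adjusted p = 0.00151). TRAF6, a ubiquitin ligase downstream of MYD88, fell from 20.9, 17.7 and 22 CPM to 17.2, 14.8 and 14.4 CPM (-0.38, adjusted p = 0.0138), a call that ended with the GC offset at a fold change of -0.31 (adjusted p = 0.0525) and without control replicate 3, AP001189.3 replicate 2 or AP001189.3 replicate 3.

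Of 32 NF-kB pathway genes 18 rose and 2 fell, with a median of 0.18. Subunits (4 of 5), inhibitors and feedback genes (6 of 9), kinases and adaptors (4 of 11) and targets (4 of 7) all had members called higher. RELB, the subunit of the non-canonical pathway, stood at 87.8, 78.6 and 89.0 CPM against 114, 119 and 122 CPM (log2 fold change 0.47, adjusted p = 2.24e-06), or 0.25 with the GC offset (adjusted p = 0.0033). LTB, a lymphotoxin chain and NF-kB target, went from 8.46, 7.84 and 7.80 CPM to 16.9, 15.9 and 12.8 CPM (0.92, SE 0.13, adjusted p = 9.74e-06). The groups did not overlap for either. REL, another subunit, fell from 34.1, 38.7 and 35.1 CPM to 31.8, 26.4 and 29.5 CPM (-0.29, adjusted p = 0.0150), and BCL2A1, a survival gene, from 33.2, 29 and 29.1 CPM to 25.1, 23.3 and 23.7 CPM (-0.34, adjusted p = 0.00664). With the GC offset 12 genes rose and 0 fell, since the calls of REL (-0.19, adjusted p = 0.134) and BCL2A1 (-0.25, adjusted p = 0.0575) ended, and the call of REL also ended without control replicate 2 or AP001189.3 replicate 2. An NF-kB site, the letters GGGAA, any base and TTCC searched on both strands, were in 7 of 55 promoters of the list (12.7%) and in 0.439% of all promoters.

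Antigen presentation genes were counted by role, and the difference between roles was not tested. Of 15 genes for peptide supply and loading 8 rose and 1 fell, while 2 of 6 class I chains rose and 0 of 5 class II pathway genes rose and 1 fell. Over the whole list of 26 genes 10 rose and 2 fell, of which 1 fell without control replicate 2 or 3 and 0 without AP001189.3 replicate 2 or 3. PSMB10, a catalytic subunit of the immunoproteasome, stood at 11.8, 11.1 and 11 CPM in the control and 33.9, 32 and 30.8 CPM in the AP001189.3 libraries (log2 fold change 1.51, SE 0.10, adjusted p = 2.81e-11). PSMB9, another such subunit, went from 75.2, 69.1 and 74.9 CPM to 126, 129 and 113 CPM (0.75, adjusted p = 2.84e-09), and TAP1, a chain of the peptide transporter chosen after its values were seen, from 425, 424 and 461 CPM to 566, 583 and 568 CPM (0.39, adjusted p = 2.14e-06). PSMB9 and PSMB10 share exon positions with a neighbouring annotated gene, and their counts are uncertain to that extent.

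HLA-E, the non-classical class I chain that natural killer cells read, rose from 568, 536 and 551 CPM to 773, 761 and 752 CPM (log2 fold change 0.47, adjusted p = 7.59e-08). HLA-B, a classical class I chain, stood at 538, 517 and 554 CPM against 544, 493 and 467 CPM (-0.10, adjusted p = 0.211). B2M, the light chain of class I, stood at 2250, 2257 and 2406 CPM against 2252, 2252 and 2236 CPM (-0.04, adjusted p = 0.633). Both overlapped between the groups and were chosen after their values were seen. In the LINC00996 libraries HLA-E was at 394, 321 and 339 CPM, and AP001189.3 against LINC00996 gave 1.14 on the log2 scale (adjusted p = 6.90e-06).

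Among immune checkpoint ligands 5 of 12 rose and 0 fell, and 3 rose without control replicate 1, control replicate 2, AP001189.3 replicate 2 or AP001189.3 replicate 3. CD274, which encodes PD-L1, stood at 37.2, 39.3 and 45.0 CPM against 54.1, 61.5 and 66.2 CPM (log2 fold change 0.58, SE 0.08, adjusted p = 1.25e-05), with 10.5, 12.2 and 15.8 CPM in the LINC00996 libraries. All 3 AP001189.3 libraries lay above the control ones, and 35.3% of all genes tested likewise had no overlap between the groups. LGALS9, which encodes the TIM-3 ligand galectin-9, rose by 0.50 (adjusted p = 2.04e-06) and NECTIN2, a ligand of TIGIT and PVRIG, by 0.38 (adjusted p = 1.53e-05) on the log2 scale, the latter by 0.23 with the GC offset. STAT3, a transcription factor of cytokine signalling, stood at 434, 434 and 430 CPM against 446, 472 and 441 CPM (0.07, adjusted p = 0.366). The kinase genes SYK and LCK were too low to be tested.

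**Figure D4:**
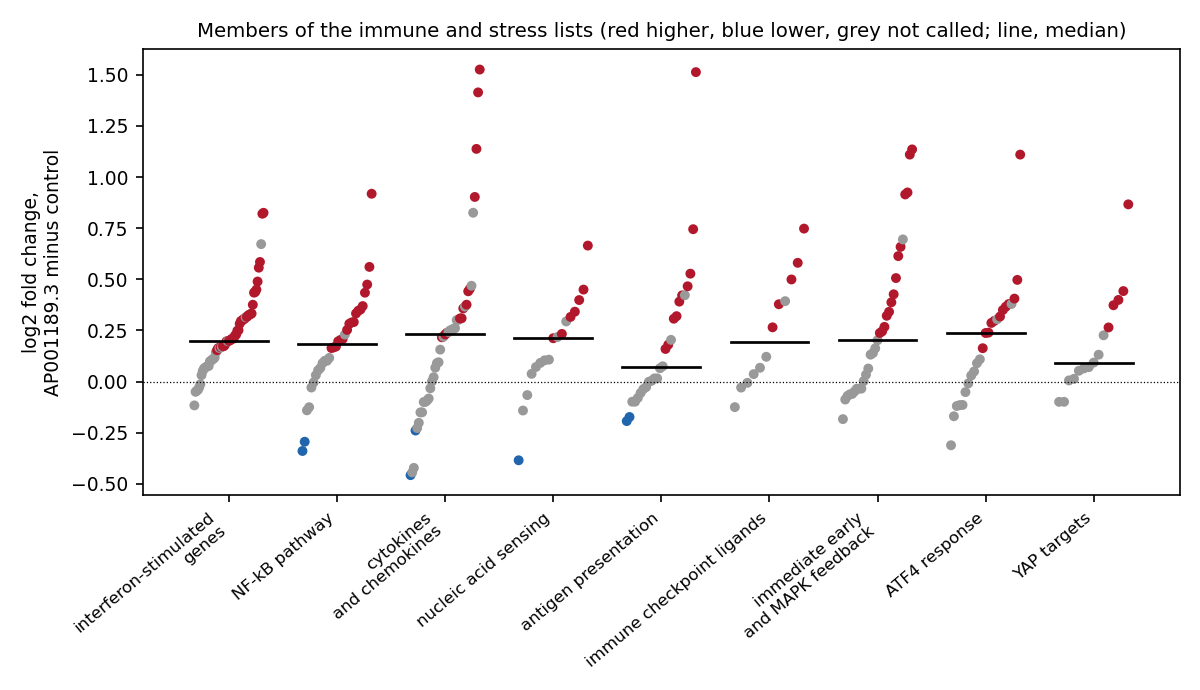
Log2 fold changes (AP001189.3 over control) of the tested members of 9 immune and stress lists, each point 1 gene, with the list median as a line. The list medians lie above zero, at 0.20 for interferon-stimulated genes and 0.07 for antigen presentation.

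Immediate early transcription factors, which respond within minutes to growth factor and stress kinases, rose in 13 of 22 cases and fell in 0, with a median of 0.33. Of 9 feedback inhibitors of MAP kinase signalling 1 rose (11.1%, against 11.4% of all genes tested), and the difference from the transcription factors was not tested. ATF3, an ATF/CREB factor induced by stress, stood at 32.9, 28.7 and 30.6 CPM in the control and 57.6, 65.9 and 75.7 CPM in the AP001189.3 libraries (log2 fold change 1.11, SE 0.09, adjusted p = 7.26e-09). EGR1, a zinc finger factor of the growth factor response, went from 10.4, 9.94 and 7.57 CPM to 20.7, 17.9 and 22.7 CPM (1.14, SE 0.13, adjusted p = 3.92e-07), and JUN, an AP-1 subunit, from 115, 109 and 102 CPM to 165, 160 and 190 CPM (0.66, adjusted p = 6.56e-08). The groups did not overlap for these genes, and the LINC00996 libraries lay below the control libraries for ATF3 (20.8 to 23.7 CPM) and JUN (73.8 to 92.8 CPM). With the GC offset 13 genes of the whole list of 31 rose and 4 fell, against 14 and 0 without it.

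Of 25 genes of the ATF4 response, the branch of the stress response that handles amino acid supply, 12 rose and 0 fell (8 and 1 with the GC offset). ATF4 itself stood at 217, 197 and 193 CPM against 265, 261 and 256 CPM (log2 fold change 0.37, adjusted p = 1.48e-05). Of 15 targets of YAP, a growth regulator, 5 rose, and CYR61, a secreted matrix protein and YAP target, went from 16.2, 14.9 and 16.6 CPM to 27.0, 29.3 and 30.7 CPM (0.87, SE 0.10, adjusted p = 3.08e-07). ADM, the vasodilator adrenomedullin, rose from 102, 94.8 and 102 CPM to 153, 145 and 141 CPM (0.56, adjusted p = 6.56e-08). Of 29 p53 targets 8 rose and 3 fell, and with the GC offset 7 rose and 0 fell. Without control replicate 3 1 fell, and without control replicate 2 or any 1 of the AP001189.3 replicates 0 did. TP53I3, an oxidoreductase gene that p53 activates, stood at 16.6, 13.5 and 15 CPM against 26.9, 28.7 and 27.8 CPM (0.88, adjusted p = 4.07e-07).

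NEAT1, the lncRNA scaffold of paraspeckles, whose exons overlap other annotated transcripts, had the smallest adjusted p of all genes named here. It lies on chromosome 11 (GRCh38, chr11:65422774-65445540, plus strand) and stood at 609, 587 and 525 CPM in the control and 1037, 1076 and 1078 CPM in the AP001189.3 libraries (log2 fold change 0.89, SE 0.05, adjusted p = 8.64e-12). The LINC00996 libraries were at 824, 581 and 553 CPM, with replicate 1 apart, and AP001189.3 against LINC00996 gave 0.73 (adjusted p = 0.00214), or 0.92 without LINC00996 replicate 1. Of the 7 genes on the list of nuclear lncRNAs and paraspeckle proteins 2 rose and 0 fell. LincRNA genes together took 0.363% to 0.404% of control counts and 0.441% to 0.475% of AP001189.3 counts (two-sided exact permutation p = 0.1, the smallest that 3 against 3 libraries allow). NEAT1 and AP001189.3 are counted among them, and without both, a choice made after seeing the data, the shares overlapped at 0.309% to 0.343% and 0.330% to 0.353% (two-sided exact permutation p = 0.7).

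Of 36 splicing factors 15 rose and 2 fell, and of 22 subunits of respiratory complexes III and IV 9 rose and 2 fell. SNRNP70, a protein of the U1 particle, stood at 138, 131 and 112 CPM against 194, 206 and 194 CPM (log2 fold change 0.64, adjusted p = 8.28e-08), with 302, 199 and 171 CPM in the LINC00996 libraries. HNRNPD, an RNA-binding protein that acts on messenger RNA decay, rose from 87.1, 88 and 80 CPM to 124, 122 and 124 CPM (0.53, adjusted p = 1.94e-07). Of 36 complex I subunits 9 rose and 2 fell, and 5 rose without AP001189.3 replicate 1. NDUFA1, an accessory subunit, rose from 14.8, 15.4 and 10.2 CPM to 26.7, 26.0 and 24.2 CPM (0.93, adjusted p = 5.28e-06). Of 13 mitochondrially encoded proteins 2 rose and 2 fell, with 1 of each without AP001189.3 replicate 1 and 1 lower without control replicate 2. Of 20 glycolysis genes 9 rose and 1 fell, but only 4 rose with the GC offset.

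**Figure D5:**
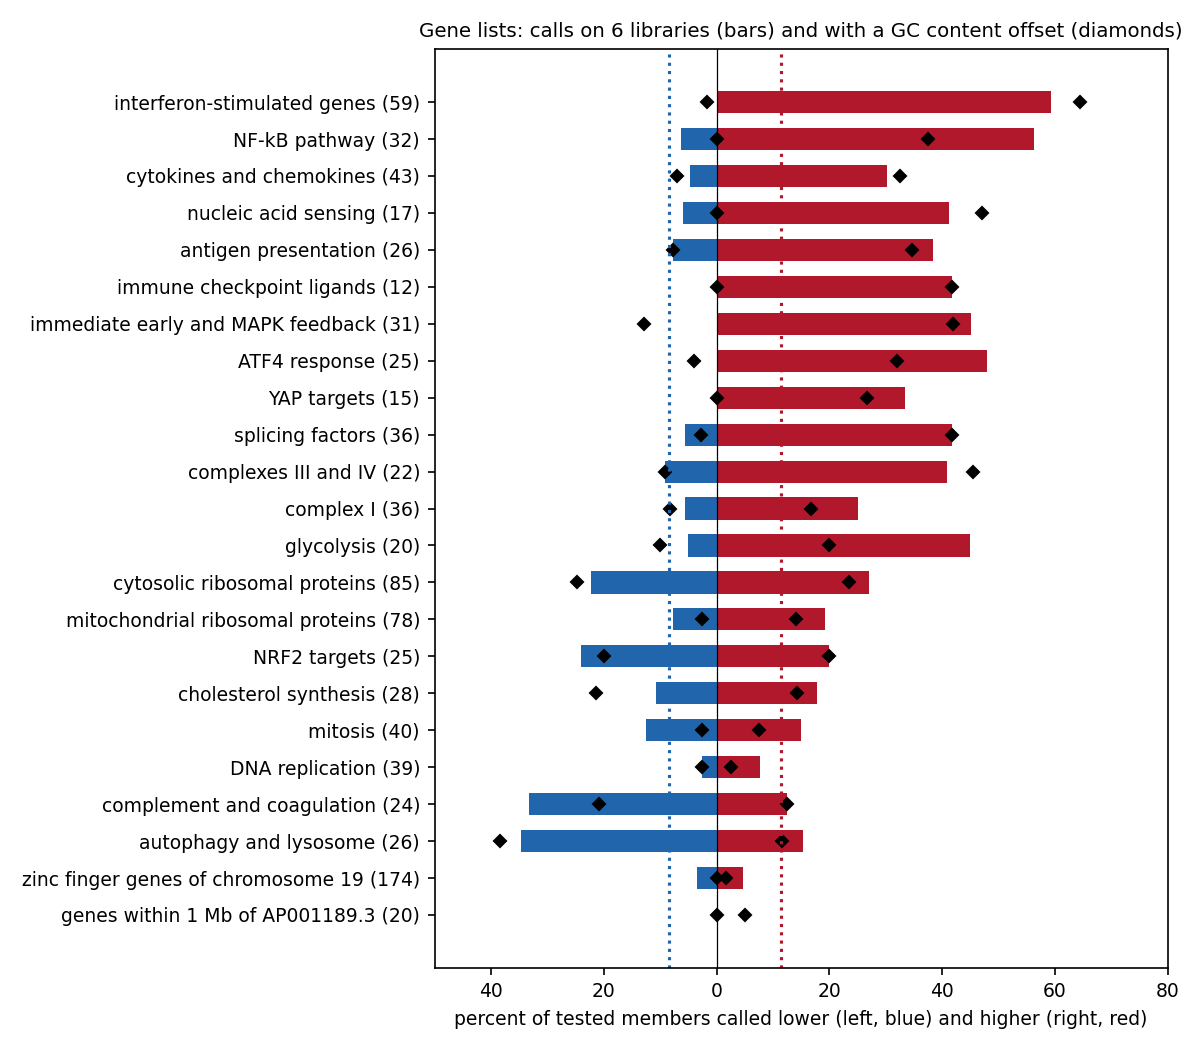
For each gene list, bars give the percent of tested members called higher and lower, diamonds the same with the GC content offset, and dotted lines the shares over all genes tested (11.4% and 8.49%). Interferon-stimulated genes have 59.3% called higher and 0% lower, and complement and coagulation genes 12.5% and 33.3%.

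Lists with more members lower than higher were few. Of 24 complement and coagulation genes 8 fell and 3 rose (median -0.11), and 3, 2 and 4 fell without control replicate 2, AP001189.3 replicate 2 and AP001189.3 replicate 3, and 5 with the GC offset. Without the same 3 libraries 1, 0 and 1 rose. CD46, a membrane protein that protects cells from complement, fell from 754, 788 and 779 CPM to 608, 576 and 582 CPM (log2 fold change -0.40, SE 0.05, adjusted p = 9.33e-07). CD55, which speeds the decay of complement convertases, fell from 980, 993 and 988 CPM to 849, 774 and 766 CPM (-0.31, adjusted p = 4.60e-05), with no overlap for either gene. CD59, which blocks the membrane attack complex, was called higher, at 159, 165 and 169 CPM against 183, 182 and 181 CPM (0.15, adjusted p = 0.0407, and 0.18 with the GC offset). C3, the central complement component and among the most abundant genes that fell, went from 3394, 3263 and 3183 CPM to 3161, 2755 and 2687 CPM (-0.19, adjusted p = 0.0112, and -0.30 with the GC offset), a call that ended without control replicate 2, AP001189.3 replicate 2 or AP001189.3 replicate 3.

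Autophagy and lysosome genes fell in 9 of 26 cases and rose in 4, and 7 of the 9 were among the 16 lysosome genes. Leaving out control replicate 2, AP001189.3 replicate 2 or AP001189.3 replicate 3 left 5, 4 and 5 lower, while 10 were lower with the GC offset. Only 2 rose without control replicate 2 or AP001189.3 replicate 2. ATG5, which is needed to form autophagosomes, fell from 36.2, 33.2 and 42.9 CPM to 28.5, 28.8 and 27.4 CPM (log2 fold change -0.41, adjusted p = 0.00160). CTSD, the lysosomal protease cathepsin D, rose from 186, 162 and 146 CPM to 247, 239 and 226 CPM (0.53, adjusted p = 5.48e-05), or by 0.33 with the GC offset. IGFBP1, a binding protein of insulin-like growth factors, fell from 636, 630 and 607 CPM to 485, 379 and 404 CPM (-0.56, adjusted p = 8.15e-05), while IGFBP6, of the same family, rose from 107, 99.2 and 91.1 CPM to 138, 134 and 124 CPM (0.41, adjusted p = 2.10e-05), or by 0.21 with the GC offset. Of 25 targets of NRF2, the antioxidant factor that is constantly active in A549, 5 rose and 6 fell.

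The 10 genes that rose by a log2 fold change of at least 1 with the smallest adjusted p and no overlap were PSENEN, COX8A, TAF10, PSMB10, MRPL12, PABPN1, ATF3, IFNL2, RPL26 and EGR1. Of these, 7 share exon positions with another annotated gene, against 48% of all genes tested and 58.6% of the 116 genes. PSENEN, a subunit of gamma-secretase, stood at 1.57, 2.53 and 1.42 CPM against 14.4, 12.3 and 13.0 CPM (2.85, SE 0.18, adjusted p = 2.81e-11), and at 35.3, 17.3 and 14.2 CPM in the LINC00996 libraries. COX8A, a subunit of cytochrome c oxidase, stood at 32.5, 29.8 and 28.8 CPM against 64.8, 62.8 and 65.3 CPM (1.08, SE 0.07, adjusted p = 2.81e-11), with 124, 70.9 and 61.0 CPM in the LINC00996 libraries. MRPL12, a mitochondrial ribosomal protein, went from 3.91, 3.64 and 3.02 CPM to 16.4, 18.6 and 12.4 CPM (2.16, SE 0.16, adjusted p = 3.36e-10).

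Levels of these genes were also compared between the lncRNA plasmids. AP001189.3 against LINC00996 gave -0.39 for COX8A (adjusted p = 0.208), -0.73 for PSENEN (0.0767) and -0.47 for MRPL12 (0.193) on the log2 scale, against 1.62 for ATF3 (5.18e-06), 3.02 for IFNL2 (1.92e-06) and 0.95 for PSMB10 (0.00273), which also shares exon positions with another gene. Without LINC00996 replicate 1 the values were -0.02 for COX8A (adjusted p = 0.854), -0.23 for PSENEN (0.134) and -0.13 for MRPL12 (0.583). TAF10, a subunit of the general transcription factor TFIID, gave -0.09 (adjusted p = 0.849), and 0.40 without LINC00996 replicate 1 (adjusted p = 0.0170). PSENEN, COX8A, MRPL12 and TAF10 had their highest level of all 9 libraries in LINC00996 replicate 1. How reads that touch more than 1 gene were counted is not given in the sources used here, and its part in these values was not tested. Nor is it given whether counting used strand, so reads of a gene and of an antisense partner cannot be told apart.

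Of the 10 genes that fell most clearly by the same rule, 9 were pseudogenes. Among the 42 genes that fell by at least 1, 15 (35.7%) were pseudogenes, against 5.07% of all genes tested, and among the 116 that rose by at least 1 also 15 (12.9%). RPSAP47, a copy of the ribosomal protein gene RPSA, fell from 2.22, 2.78 and 3.76 CPM to 0.351, 0.193 and 0.120 CPM (log2 fold change -3.67, adjusted p = 5.36e-07). FTH1P7, a copy of the ferritin heavy chain gene, fell from 29, 30.5 and 32.3 CPM to 17.0, 12.2 and 15 CPM (-1.05, adjusted p = 6.82e-08). RPS23, a protein of the small ribosomal subunit and the only gene of the 10 that is not a pseudogene, stood at 92.0, 103 and 109 CPM against 50.3, 52.0 and 48.7 CPM (-1.01, SE 0.07, adjusted p = 2.81e-11), and at 209, 79.3 and 77.5 CPM in the LINC00996 libraries. RPS23 has 10 pseudogene copies, so reads may be split between them, and its call ended with all 9 libraries in 1 fit. Processed pseudogenes as a class took 0.289% to 0.293% of control counts and 0.263% to 0.278% of AP001189.3 counts (exact permutation p = 0.1), and 30 of 373 rose (8.04%) and 35 fell (9.38%), against 11.4% and 8.49% of all genes tested.

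Ribosomal protein genes moved in both directions without a shift of the whole. Of 85 tested, 79 of them with pseudogene copies, 23 rose and 19 fell with a median of 0.00, and they took 2.86% to 3% of control and 2.88% to 2.99% of AP001189.3 counts (exact permutation p = 0.9). Without AP001189.3 replicate 2 or 3, 10 and 12 fell. Cell cycle lists showed no common direction either. Of 40 genes of mitosis 6 rose (15%) and 5 fell (12.5%), near the 11.4% and 8.49% of all genes tested. With the GC offset 3 rose and 1 fell, and without control replicate 1 10 fell, against 1 to 4 without any other library. Of 39 genes of DNA replication 3 rose (7.69%) and 1 fell (2.56%), both below the shares over all genes tested. In that list 0 rose without control replicate 2 or AP001189.3 replicate 2. The share of counts on the mitochondrial chromosome was 5.26% to 5.66% in the control and 5.32% to 5.52% in the AP001189.3 libraries (exact permutation p = 0.9). PECAM1, a junction protein of endothelium and the only called gene of the endothelial markers, fell from 7.29, 8.59 and 8.25 CPM to 5.09, 4.64 and 4.09 CPM (log2 fold change -0.80, adjusted p = 0.000703).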

How the data were processed

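The authors deposited raw read counts per gene for each library and, beside them, FPKM values. Per the submitters' processing notes, reads were handled with HISAT2 2.0.5 and featureCounts 1.5.0-p3, and DESeq2 1.20.0 and edgeR 3.22.5 are named too. The deposited gene coordinates equal those of GENCODE 29 (GRCh38) for all 58735 genes. FPKM was used only to compare AP001189.3 with other genes per length.

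Counts of the 3 AP001189.3 and 3 control libraries were filtered with filterByExpr, scaled by TMM and tested with the robust quasi-likelihood test of edgeR 4.0.16 in R 4.3.3. P-values were adjusted by Benjamini-Hochberg over all genes tested and called under 0.05. CPM of these 6 libraries use the TMM factors of this fit, and CPM of LINC00996 libraries those of all 9. AP001189.3 was tested against LINC00996 in the same way. Shares of counts were compared by exact permutation over libraries. GC content and length were those of the longest transcript, and offsets were loess curves (span 0.75) per library on that GC content or on the deposited gene length. Floors cover counting error only.

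Members and lists were chosen with earlier results of these data known. Named were the overexpressed lncRNA, the 10 genes that rose and the 10 that fell with the smallest adjusted p among calls that changed by 1 or more on the log2 scale without overlap, the 5 most abundant called genes per direction, up to 3 called members per list and direction, genes within 1 Mb, the study's lncRNAs and proteins, and marker genes. Alternatives were DESeq2 1.42.0, other scalings and filters, all 9 libraries in 1 fit, each library left out, a replicate block, GC and length offsets, thinning, leaving out mitochondrial genes, and a test against a fold of 1.2. Fits without LINC00996 replicate 1, and the lincRNA share without NEAT1 and AP001189.3, were added after seeing the data. The script was tested on simulated counts. Results on some genes that the rule names are not reported here.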

Additional observations from a re-analysis of the deposited data

How the results depend on the processing

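The cause was not tested for any change given here unless a value shows it. DESeq2 called 2371 genes, the other scalings and filters 3077 to 3327, and the GC offset 2432, of which 1812 were called without it. With all 9 libraries in 1 fit 437 genes were called (344 higher, 93 lower), and 65 that moved by 1 or more on the log2 scale. That loss rested on LINC00996 replicate 1, since 3291 were called with all libraries but that one, 3147 of them called in the 6-library fit too. The test against a fold of 1.2 left 357 (306 higher, 51 lower), and 79 at that size. At that size DESeq2 gave 101 and at least 10 counts in every library 89 in place of 158, the latter with fewer genes tested, and under that filter AP001189.3 could not be fitted. Leaving out 1 library at a time gave 1914 to 3598 called genes, 1235 to 1988 higher, 679 to 1610 lower and 115 to 240 that moved by 1 or more on the log2 scale. The fitted log2 fold change of AP001189.3 ranged from 10.30 to 11.71 with a library left out and from 10.72 to 11 otherwise.

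Same-numbered control and AP001189.3 libraries deviated from their group means with correlations of 0.048, -0.023 and 0.042, so the numbers were not taken to pair the libraries. A replicate block gave 3466 called genes (1950 higher, 1516 lower), 152 that moved by 1 or more on the log2 scale and 10.84 for AP001189.3.

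Of 207 named genes called, 195 kept their call with DESeq2, 207 with the replicate block, 160 with the GC offset, 64 with all 9 libraries, 66 with the fold test and 158 to 198 with a library left out. POLD1, the catalytic subunit of DNA polymerase delta, was the only reversal among them, from 0.20 to -0.02 on the log2 scale with the GC offset (adjusted p = 0.9, edgeR). Against LINC00996, leaving out LINC00996 replicate 1 turned the glycolytic enzyme ALDOA from -0.60 to 0.91, PHLDA3, a p53 target, from -0.04 to 0.31 and TAF10 from -0.09 to 0.40. ALDOA, at 4.76 to 31.9 CPM over the 9 libraries, shares exon positions with other annotated genes. Its counts are uncertain to that extent. Depth limits low genes: 3 counts correspond to 0.171 to 0.193 CPM in the 6 libraries.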

Other observations

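Other gene groups moved in part. Of 15 genes of the TGF-beta response 6 rose and 2 fell, and 3 rose without AP001189.3 replicate 3. INHBA, which encodes the subunit of activin A, stood at 1.87, 2.04 and 1.99 CPM in the control and 3.22, 4.06 and 4.93 CPM in the AP001189.3 libraries (log2 fold change 1.05, SE 0.24, adjusted p = 0.00220, edgeR). ID1, an inhibitor of differentiation factors, fell from 608, 610 and 672 CPM to 509, 484 and 521 CPM (-0.32, adjusted p = 5.19e-05), and the receptor gene TGFBR2 from 330, 344 and 365 CPM to 278, 275 and 272 CPM (-0.33, adjusted p = 2.68e-05). Of 36 collagen, laminin and integrin genes 8 rose and 2 fell, 5 and 0 without control replicate 2 or AP001189.3 replicate 2, and 4 and 3 with the GC offset. COL5A1, a fibrillar collagen chain, stood at 244, 225 and 218 CPM against 310, 312 and 317 CPM (0.45, adjusted p = 5.32e-07), or 0.29 with the GC offset.

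Heat shock chaperones split, with 5 of 17 higher and 3 lower, and 3 higher without AP001189.3 replicate 2 or 3 and 2 with the GC offset. HSPE1, the mitochondrial co-chaperonin, rose from 17.7, 18.4 and 16.6 CPM to 30.0, 32.8 and 26.8 CPM (log2 fold change 0.76, adjusted p = 2.27e-06), and has 26 pseudogene copies. HSPA8, the constitutive cytosolic chaperone, fell from 539, 573 and 594 CPM to 444, 496 and 481 CPM (-0.26, adjusted p = 0.000623). HSPA8 has 17 pseudogene copies and shares exon positions with other annotated genes. Among NRF2 targets ALDH3A1, an aldehyde dehydrogenase, rose from 516, 506 and 541 CPM to 704, 759 and 735 CPM (0.49, adjusted p = 6.10e-08), with 2194, 1471 and 1356 CPM in the LINC00996 libraries, while AKR1C3, an aldo-keto reductase, fell from 1338, 1376 and 1390 CPM to 1129, 1123 and 1110 CPM (-0.29, adjusted p = 4.45e-05).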
